A study of Mus musculus with 6 samples.

Results

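Cardiolipin is a phospholipid made and kept in the inner mitochondrial membrane, and 5 mouse genes that build it were examined in primary cortical neurons carrying a Ribo-STAMP construct. The genes were *Tamm41*, *Pgs1*, *Ptpmt1*, *Crls1* and *Taz*. They were listed by symbol, and *Pgs1* was picked because its value was high with RPL22-STAMP, so its difference between the variants is described below without a test. The deposited tables held a value for 4 of the 5 genes, among 31053 listed genes. *Ptpmt1* was not analysed here.

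Ribo-STAMP attaches rAPOBEC1, an enzyme that deaminates C in RNA and so turns it into U, to a ribosomal protein, so that edits mark RNAs near ribosomes. The neurons came from the cortices of WT C57BL/6J embryos at E18, received floxuridine at DIV 3 against dividing cells, were infected with AAV at DIV 6 and were collected at DIV 14. All 6 libraries came from neurons given Dox at 1 µg per ml for 48 h. Their sample titles also read NT, which the study uses for no treatment. The 2 groups differed in the mouse ORF fused to rAPOBEC1, *Rpl10a* in 3 libraries (RPL10A-STAMP) and *Rpl22* in the other 3 (RPL22-STAMP). They also differed in the side of the fusion, with *Rpl10a* at the C terminus of rAPOBEC1 and *Rpl22* at its N terminus. A synapsin promoter drove the transactivator of the Tet-On vector, so expression was directed to neurons, whereas RNA was taken from the whole culture, where fewer cells of a type and less RNA per cell cannot be told apart. Libraries without Dox or without a construct were not analysed here, so no level of editing in the absence of a fusion protein stands beside these values. The comparison asks whether the fusion protein used alters the editing read-out of these mRNAs. The ribosomal protein, the side of the fusion and the expression of each construct, which was not analysed here, cannot be told apart in it.

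The synthesis of cardiolipin runs through a short chain of mitochondrial enzymes. *Tamm41* encodes the enzyme that makes CDP-diacylglycerol from phosphatidic acid inside mitochondria. *Pgs1* encodes the synthase that joins CDP-diacylglycerol to glycerol-3-phosphate, the committed step, which gives phosphatidylglycerol phosphate. *Ptpmt1* encodes the phosphatase that turns this product into phosphatidylglycerol, and *Crls1* the cardiolipin synthase that condenses phosphatidylglycerol with CDP-diacylglycerol. *Taz* encodes tafazzin, the transacylase that exchanges the acyl chains of finished cardiolipin and is mutated in Barth syndrome. It is a different gene from *Wwtr1*, whose protein is also called TAZ. Respiratory chain complexes and the folds of the inner membrane depend on cardiolipin, and neurons rely on respiration.

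The measurement was EPR, the number of C-to-U edits in a gene divided by the number of its reads. EPR is no measure of RNA level. Neither edits nor reads were used here on their own, so the depth of a value is unknown, no counting error could be given, and a 0 stands either for no edits or for no reads. Genes with any EPR above 0 are called edited. Each library held 9892 to 11195 edited genes, and 8046 genes were edited in all 6. The median EPR of these 8046 genes lay between 0.0120 and 0.0161 in the RPL10A-STAMP libraries, against 0.00907 to 0.0129 for RPL22-STAMP. Scaled EPR is EPR after these medians were made equal. Among cell type markers, the 5 of neurons, *Map2*, *Tubb3*, *Rbfox3*, *Snap25* and *Syn1*, were edited in all 6 libraries, with a summed EPR of 0.0820 to 0.0985 with RPL10A-STAMP and of 0.0778 to 0.101 with RPL22-STAMP. The astrocyte markers *Gfap*, *Aqp4* and *Slc1a3*, 3 of 4, were edited in all 6 as well, with a summed EPR over the 4 of 0.0996 to 0.131 and of 0.0825 to 0.138. Of 3 oligodendrocyte markers 1, *Mbp*, was edited in all 6 and *Mog* was listed at 0 in all, with summed values of 0.00358 to 0.0886 and of 0.00360 to 0.0532. None of the 3 microglial markers was edited in all 6, *Csf1r* and *Aif1* were listed at 0 in all, and the sums reached 0.0143 and 0.0364. The ranges of these sums overlapped between the 2 variants for each list. Of the 5 neuronal markers *Syn1* alone passed, higher with RPL22-STAMP (log2 difference -0.82, standard error 0.12, limma adjusted p = 0.00814). Of all 8046 genes, 14.3% passed. *Map2* did not pass (0.32, standard error 0.12, limma adjusted p = 0.119), with its RPL10A-STAMP libraries all above those of RPL22-STAMP. *Snap25* did not pass either (-0.27, standard error 0.14, limma adjusted p = 0.227), with its scaled RPL22-STAMP libraries all above those of RPL10A-STAMP. Scaled libraries did not overlap in 37.1% of the 8046 genes. The part of these cell types in the results was not tested.

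Because rAPOBEC1 acts on C, the stretches of coding sequence richest in C are shown for the 4 genes with a value. Each is the window of 60 bases within 1 coding exon that holds the most C, read 5′ to 3′ on the coding strand from GRCm38 with GENCODE M21, with every C in capitals. Sequence outside the coding part is not shown, and the positions of the edits were not analysed here.
Tamm41: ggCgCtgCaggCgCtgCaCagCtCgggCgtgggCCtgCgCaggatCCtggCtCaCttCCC
Pgs1: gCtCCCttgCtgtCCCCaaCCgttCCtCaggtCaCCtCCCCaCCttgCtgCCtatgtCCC
Crls1: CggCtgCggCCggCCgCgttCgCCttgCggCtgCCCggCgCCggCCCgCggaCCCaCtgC
Taz: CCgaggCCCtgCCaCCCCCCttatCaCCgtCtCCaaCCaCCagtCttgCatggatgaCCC

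The *Tamm41* window lay in coding exon 1 of 8 (chr6:115037723-115037782, minus strand) and held 22 C. The *Pgs1* window lay in coding exon 2 of 9 (chr11:117997460-117997519, plus strand), at coding bases 154 to 213, and held 29 C. The *Crls1* window, in coding exon 1 of 7 (chr2:132846964-132847023, plus strand), and the *Taz* window, in coding exon 2 of 10 (chrX:74283330-74283389, plus strand), held 28 C each. Over the whole coding sequence, C made up 29.4% of the bases of *Pgs1*, 28.8% of *Taz*, 27.8% of *Crls1* and 25.9% of *Tamm41*. *Pgs1* thus had the highest C content of the 4, by a few percentage points over the lowest. No order of EPR is drawn from these letters.

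*Pgs1* was among the most edited genes with RPL22-STAMP and not with RPL10A-STAMP. The study names *Pgs1* among the genes that respond to Dox, which the neurons of every library received. The part of this response in its EPR was not tested. Its EPR was 0.00573, 0.0197 and 0.0109 in the RPL10A-STAMP libraries and 0.0541, 0.0780 and 0.0963 in the RPL22-STAMP libraries. All 3 RPL22-STAMP libraries lay above all 3 RPL10A-STAMP libraries, and the lowest of the former was 2.75-fold above the highest of the latter. Means were 0.0121 ± 0.00705 (SD, n = 3) and 0.0761 ± 0.0212 (SD, n = 3), a ratio of 6.29. Groups of scaled libraries that do not overlap were found in 37.1% of the 8046 genes, and nothing is read from this for *Pgs1*, since its value chose it. After scaling, the means were 0.0102 ± 0.00530 and 0.0860 ± 0.0186 (SD, n = 3 each), a ratio of 8.42.

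Relative to its mean, *Pgs1* varied more among the RPL10A-STAMP libraries, although its SD was larger with RPL22-STAMP. The coefficient of variation was 58.3% in the RPL10A-STAMP libraries and 27.8% in those of RPL22-STAMP. Left out in turn, the libraries moved the ratio of means from 4.98 (RPL10A-STAMP replicate 1 left out) up to 9.15 (replicate 2 of the same variant left out). The RPL22-STAMP libraries placed *Pgs1* above 96.8%, 96.7% and 97.8% of their edited genes. The RPL10A-STAMP libraries placed it above 18.9%, 62.5% and 34%, on both sides of the middle.

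**Figure D1:**
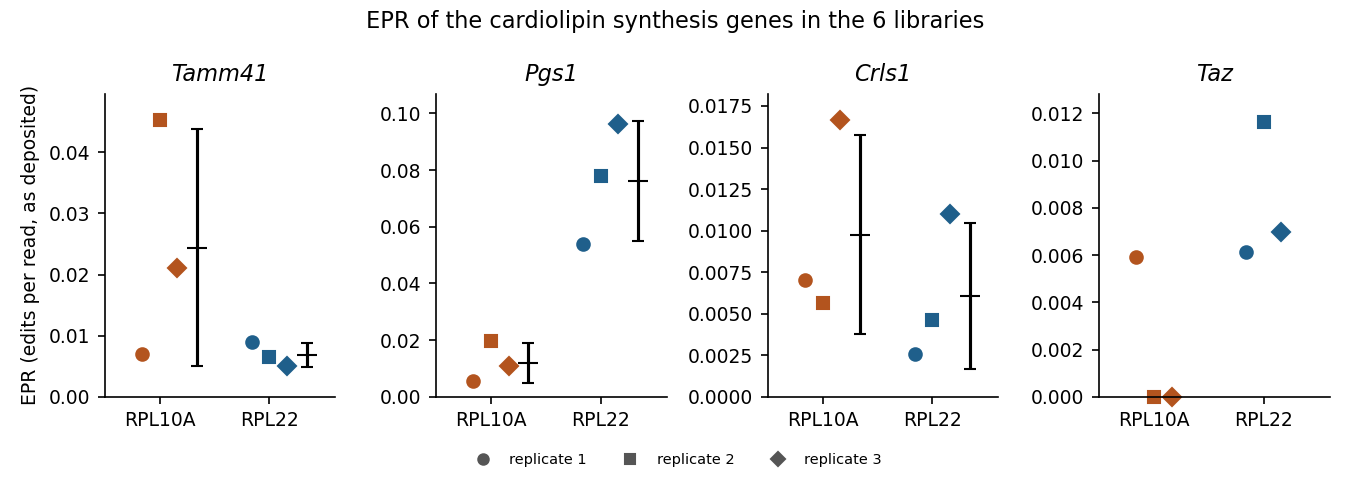
EPR as deposited (edits per read, linear axis from 0, own scale in each panel) of *Tamm41*, *Pgs1*, *Crls1* and *Taz* in the 3 RPL10A-STAMP and 3 RPL22-STAMP libraries. Each point is a library and its shape the replicate number, bars show mean ± SD (n = 3) and are left out for *Taz*, listed at 0 in 2 libraries. The 3 RPL22-STAMP points of *Pgs1* lie between 0.0541 and 0.0963, above its 3 RPL10A-STAMP points, whereas the points of *Tamm41* and *Crls1* overlap.

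On the log2 scale of scaled EPR + 0.01, the difference of *Pgs1*, RPL10A-STAMP minus RPL22-STAMP, was -2.26 (standard error 0.23), and 1 gene of the 8046 had a lower value. Across alternatives in the pseudocount, scaling, filter, trends and libraries left out, the difference ranged from -3.18 to -1.94. The *Pgs1* transcript had a GC content of 57.4%, above that of 91.1% of the tested genes, whose median was 48.9%. With the trend of each library with GC content removed, the log2 difference of *Pgs1* was -1.94, the smallest of that range.

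*Pgs1* (ENSMUSG00000017715) lies on the plus strand of chr11:117986292-118024011. The transcript used here, the one with the longest coding sequence, has 10 exons, 2863 bases and 553 codons. The end of the gene overlaps *Dnah17*, an axonemal dynein heavy chain gene on the opposite strand (chr11:118021723-118130634), over 93 exonic bases, 1.74% of the exonic bases of *Pgs1*. *Dnah17* was listed at 0 in all 6 libraries. The nearest listed gene before it, *Socs3*, an inhibitor of cytokine signalling on the minus strand (chr11:117966079-117970047), lies 16244 bases away and was edited in 1 library, at an EPR of 0.0192. On the other side, the nearest listed gene that does not overlap it, *Gm11738* (chr11:118114855-118118279, plus strand), lies 90843 bases away and was listed at 0 in all 6.

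*Tamm41*, which supplies the CDP-diacylglycerol that *Pgs1* uses, did not pass the test. Its libraries gave an EPR of 0.00704, 0.0452 and 0.0210 for RPL10A-STAMP and of 0.00893, 0.00654 and 0.00508 for RPL22-STAMP. Replicate 2 of RPL10A-STAMP was the highest and replicate 1 lay inside the range of RPL22-STAMP, so the groups overlapped. Means were 0.0244 ± 0.0193 and 0.00685 ± 0.00194 (SD, n = 3 each), a ratio of 3.57 in the direction opposite to *Pgs1*. The log2 difference of scaled EPR was 0.64 (standard error 0.35, 95% confidence interval -0.20 to 1.47, limma adjusted p = 0.267 over 8046 genes), and it was 0.25 without RPL10A-STAMP replicate 2. *Tamm41* (ENSMUSG00000030316, chr6:115004381-115037876, minus strand) has 8 exons, a transcript of 1168 bases with 337 codons and a GC content of 53.3%.

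*Crls1*, the cardiolipin synthase, showed no difference beyond the spread of its libraries. The RPL10A-STAMP libraries gave an EPR of 0.00700, 0.00563 and 0.0166, those of RPL22-STAMP one of 0.00258, 0.00464 and 0.0110. Replicate 3 was the highest library of both variants, and the groups overlapped. With means of 0.00976 ± 0.00600 and 0.00607 ± 0.00437 (SD, n = 3 each), the log2 difference of scaled EPR was 0.14 (standard error 0.24, 95% confidence interval -0.44 to 0.71, limma adjusted p = 0.744). Its direction turned to -0.039 without RPL10A-STAMP replicate 3. *Crls1* (ENSMUSG00000027357, chr2:132846666-132866785, plus strand) has 7 exons, a transcript of 1924 bases with 303 codons and a GC content of 46.3%, and shares 2 exonic bases with *Gm14104* on the opposite strand, which was listed at 0 in all 6 libraries.

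*Taz*, the tafazzin gene, was edited in all 3 RPL22-STAMP libraries and in 1 RPL10A-STAMP library. Its EPR was 0.00614, 0.0116 and 0.00698 with RPL22-STAMP, and 0.00593 in RPL10A-STAMP replicate 1, while it was listed at 0 in replicates 2 and 3. The groups did not overlap, but the RPL10A-STAMP library with edits lay just below the lowest RPL22-STAMP library. The share of genes without overlap, 37.1%, covers genes edited in all 6 libraries and so not *Taz*. Nothing is therefore read from the lack of overlap. The two-sided exact permutation test over 20 labelings gave p = 0.10, the smallest that 3 libraries against 3 allow. Genes listed at 0 in a library were left out of the main test across genes, so *Taz* has no value from it. With genes edited in at least 3 libraries admitted, its log2 difference was -0.70 (standard error 0.23, limma adjusted p = 0.132). It did not pass under this filter, which keeps its zeros. *Taz* entered it through its RPL22-STAMP libraries, where it was higher, so nothing is read from this difference. *Taz* (ENSMUSG00000009995, chrX:74281912-74290151, plus strand) has 22 annotated transcripts, 8 of them coding, and the transcript used has 10 exons, 1786 bases, 263 codons and a GC content of 52.0%. It shares no exonic base with *Dnase1l1* on the opposite strand, whose span overlaps its own and which was listed at 0 in all 6 libraries.

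*Ptpmt1* (ENSMUSG00000063235) lies on the minus strand of chr2:90908716-90918258, and GENCODE M21 gives it as a processed transcript without a coding form. Its span overlaps *Kbtbd4*, a gene on the opposite strand (chr2:90904740-90911626) that was edited in all 6 libraries with an EPR of up to 0.0531. No value of *Kbtbd4* was taken to stand for *Ptpmt1*.

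The order of the genes by median EPR differed between the variants. With RPL10A-STAMP it ran *Tamm41*, *Pgs1*, *Crls1* and *Taz*, and the ranges of all neighbours in it overlapped. With RPL22-STAMP it ran *Pgs1*, *Taz*, *Tamm41* and *Crls1*, and *Pgs1* stood above *Taz* without overlap, while the ranges of the other neighbours overlapped. EPR counts edits per read and takes no account of how many C a read of each gene holds.

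Ratios within a library, which need no scaling between libraries, showed the same contrast. *Pgs1* over *Crls1* was 0.818, 3.50 and 0.656 in the RPL10A-STAMP libraries, against 20.9, 16.8 and 8.78 for RPL22-STAMP. *Pgs1* over *Tamm41* was 0.813, 0.435 and 0.519 against 6.06, 11.9 and 19.0. *Pgs1* was thus below *Tamm41* in every RPL10A-STAMP library and on either side of *Crls1*, and above both in every RPL22-STAMP library. These ratios hold the value that chose *Pgs1* and were not tested.

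The wider supply and use of the same lipids was followed with a list of 32 phospholipid genes, all with a row in the tables. Of these, 26 were edited in all 6 libraries and tested, 4 were listed at 0 in all (*Gpat2*, *Prelid2*, *Nme4* and *Pld6*), and *Pla2g6* and *Plscr3* were at 0 in some. Among the 26, 4 passed the test, 15.4% against 14.3% of all 8046 genes. Higher with RPL10A-STAMP was 1 of them, *Chpt1*, where 8.51% of all genes passed in this direction. The other 3, *Cds2*, *Cdipt* and *Etnk1*, were higher with RPL22-STAMP, where 5.77% of all genes passed. The log2 difference was positive for 13 and negative for 13, with a median of 0.00065 against -0.01 over all genes tested, and scaled libraries did not overlap in 9 genes, 34.6% against 37.1%. The share of the list that passed was thus close to the background.

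**Figure D2:**
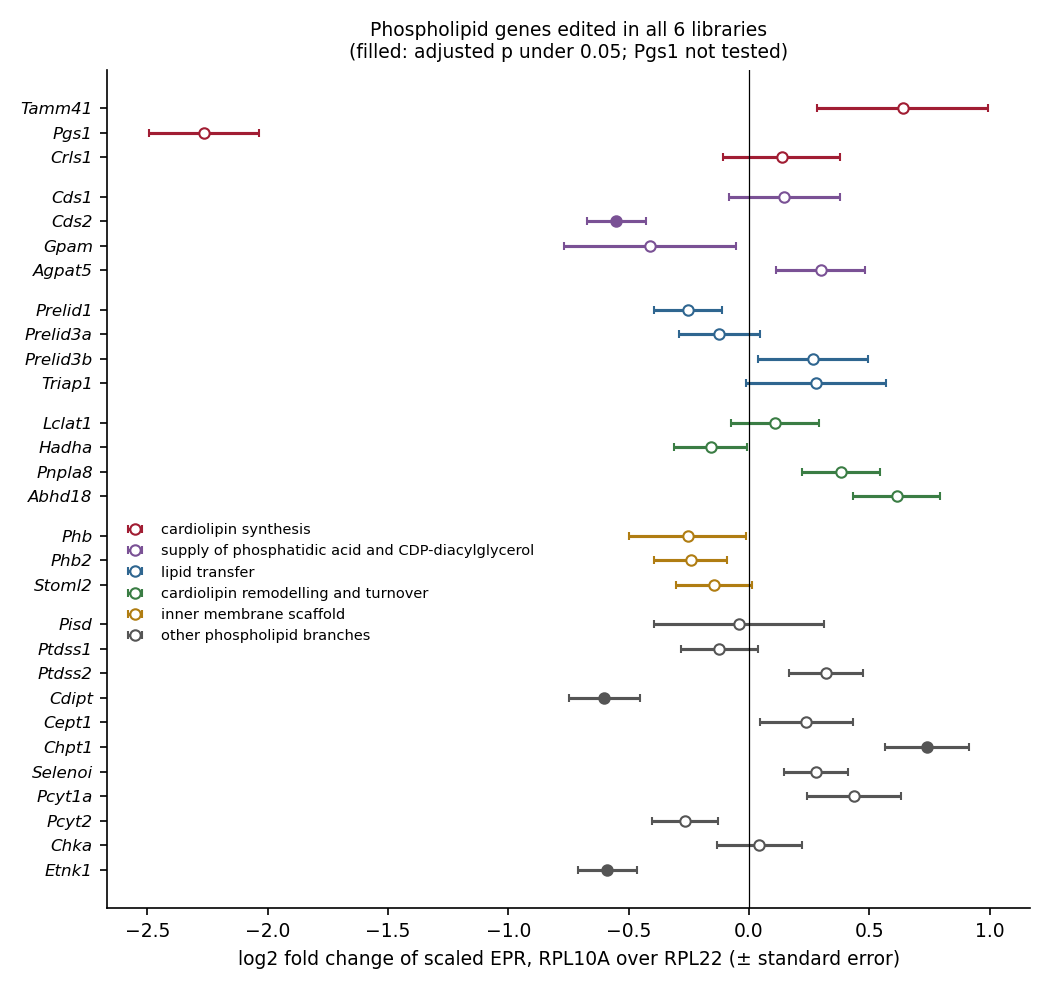
Log2 difference of scaled EPR, RPL10A-STAMP minus RPL22-STAMP, of the 3 cardiolipin synthesis genes and 26 wider phospholipid genes edited in all 6 libraries, grouped and coloured by role. Bars are standard errors from limma, and filled points passed an adjusted p of 0.05 (*Pgs1* was not tested). *Pgs1*, which was picked for its value, lies at -2.26, and the 26 listed genes lie between -0.60 and 0.74.

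Among the genes that supply phosphatidic acid and CDP-diacylglycerol, 4 of 5 were tested and 1 passed, where 14.3% of all genes tested passed. *Cds2*, which encodes a CDP-diacylglycerol synthase of the endoplasmic reticulum, had a scaled EPR of 0.0171, 0.0173 and 0.0154 with RPL10A-STAMP and of 0.0285, 0.0301 and 0.0282 with RPL22-STAMP. These libraries did not overlap, although the deposited values did, at 0.0163 to 0.0211 and 0.0206 to 0.0310. The log2 difference was -0.55 (standard error 0.12, limma adjusted p = 0.0278), and the call was lost under 12 of 18 alternatives, among them no scaling (limma adjusted p = 0.384), the GC trend removed (0.0820), the replicate block (0.0746) and each single library left out. *Cds1*, its paralog, had 0.15 (standard error 0.23, limma adjusted p = 0.703). The acyltransferase genes *Gpam* and *Agpat5* had -0.41 (standard error 0.36) and 0.30 (standard error 0.19), and neither passed.

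None of the genes for lipid transfer into mitochondria passed, with 4 of 5 tested. *Prelid1*, *Prelid3a*, *Prelid3b* and *Triap1*, which encode a shuttle of phospholipids across the intermembrane space and its partner, lay between -0.25 and 0.28 on the log2 scale. The remodelling and turnover genes also gave no call among 4 tested of 5. The largest difference there was that of *Abhd18*, at 0.61 (standard error 0.18, limma adjusted p = 0.0662), with an EPR of 0.0341, 0.0608 and 0.0647 in the RPL10A-STAMP libraries, against 0.0161, 0.0335 and 0.0211 for RPL22-STAMP. *Hadha*, a subunit of the mitochondrial trifunctional protein, had -0.16 (standard error 0.15).

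The inner membrane scaffold genes *Phb*, *Phb2* and *Stoml2*, whose proteins form ring-like assemblies that bind cardiolipin, had log2 differences of -0.26, -0.24 and -0.14, and none passed. Their mean EPR over the 6 libraries lay between 0.00331 and 0.00696, under the lowest of the library medians, 0.00907. Of the 3 genes for translocation or hydrolysis of cardiolipin, none was edited in all 6 libraries. *Plscr3*, a phospholipid scramblase gene edited in 4 libraries, had a log2 difference of 0.11 (standard error 0.38, limma adjusted p = 0.898) with genes edited in at least 3 libraries admitted.

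Other branches of phospholipid synthesis held 3 of the 4 calls, among 11 tested, 27.3% against 14.3% of all genes tested. No concentration is read from so few genes. *Cdipt*, which encodes the phosphatidylinositol synthase and also uses CDP-diacylglycerol, had a scaled EPR of 0.00672, 0.0117 and 0.00869 with RPL10A-STAMP and of 0.0204, 0.0189 and 0.0169 with RPL22-STAMP, a log2 difference of -0.60 (standard error 0.15, limma adjusted p = 0.0384). *Etnk1*, an ethanolamine kinase at the start of phosphatidylethanolamine synthesis, had 0.0243, 0.0215 and 0.0220 against 0.0378, 0.0388 and 0.0403, a log2 difference of -0.59 (standard error 0.12, limma adjusted p = 0.0236). For both genes the scaled libraries of the variants did not overlap, whereas the deposited values of *Etnk1* did, at 0.0232 to 0.0283 and 0.0274 to 0.0399. Without scaling, neither gene passed (limma adjusted p = 0.264 for *Cdipt* and 0.372 for *Etnk1*).

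*Chpt1*, a cholinephosphotransferase that completes phosphatidylcholine, was the most edited gene of the list. Scaled values of 0.110, 0.122 and 0.113 for RPL10A-STAMP stood against 0.0716, 0.0748 and 0.0505 for RPL22-STAMP, a log2 difference of 0.74 (standard error 0.18, limma adjusted p = 0.0344). All 3 RPL10A-STAMP libraries lay above all 3 RPL22-STAMP libraries. The mitochondrial phosphatidylserine decarboxylase gene *Pisd*, which makes phosphatidylethanolamine, had a log2 difference of -0.04 (standard error 0.35). Each of the 4 calls was lost under 11 to 14 of 18 alternatives and none turned its direction. All 4 were lost with the GC trend removed. With single libraries left out in turn, 0 to 1 of the 4 passed, *Etnk1* without RPL22-STAMP replicate 1 and *Chpt1* without RPL22-STAMP replicate 2.

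**Figure D3:**
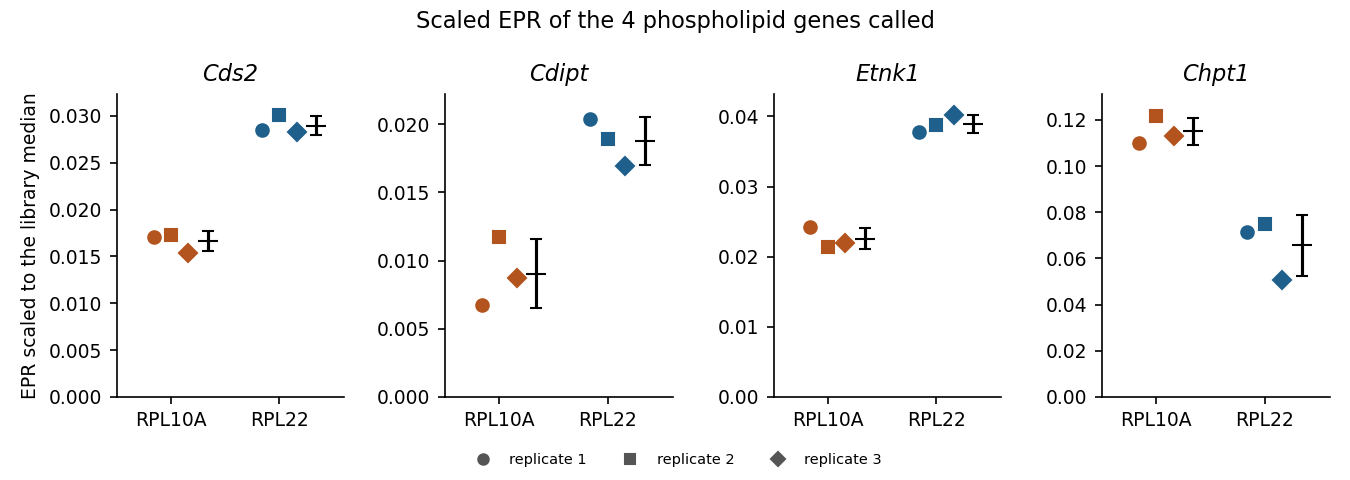
Scaled EPR (library medians made equal, linear axis from 0, own scale in each panel) of the 4 phospholipid genes that passed the limma test. Points are libraries, shapes replicate numbers and bars mean ± SD (n = 3). *Cds2*, *Cdipt* and *Etnk1* are higher in all 3 RPL22-STAMP libraries and *Chpt1* in all 3 RPL10A-STAMP libraries.

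The position of these genes among all genes tested is shown by the plot of the difference against level. Beside *Pgs1*, only *Tamm41* and *Crls1* of the cardiolipin synthesis genes were edited in all 6 libraries. Of the tested genes, 798 lay above the difference of *Tamm41* and 2906 above that of *Crls1*. The fused ORFs were checked in the same way, since reads of a construct could fall on them. *Rpl10a* had a log2 difference of 0.68 (standard error 0.25, limma adjusted p = 0.113) and *Rpl22* of 0.0014 (standard error 0.12, limma adjusted p = 0.995). Neither passed the test. The libraries of *Rpl10a* did not overlap between the variants, and it passed, higher with RPL10A-STAMP, without scaling (0.97, limma adjusted p = 0.0330) and without RPL22-STAMP replicate 1 (0.97, limma adjusted p = 0.0184). The direction of *Rpl22* turned under other pseudocounts and with some libraries left out.

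**Figure D4:**
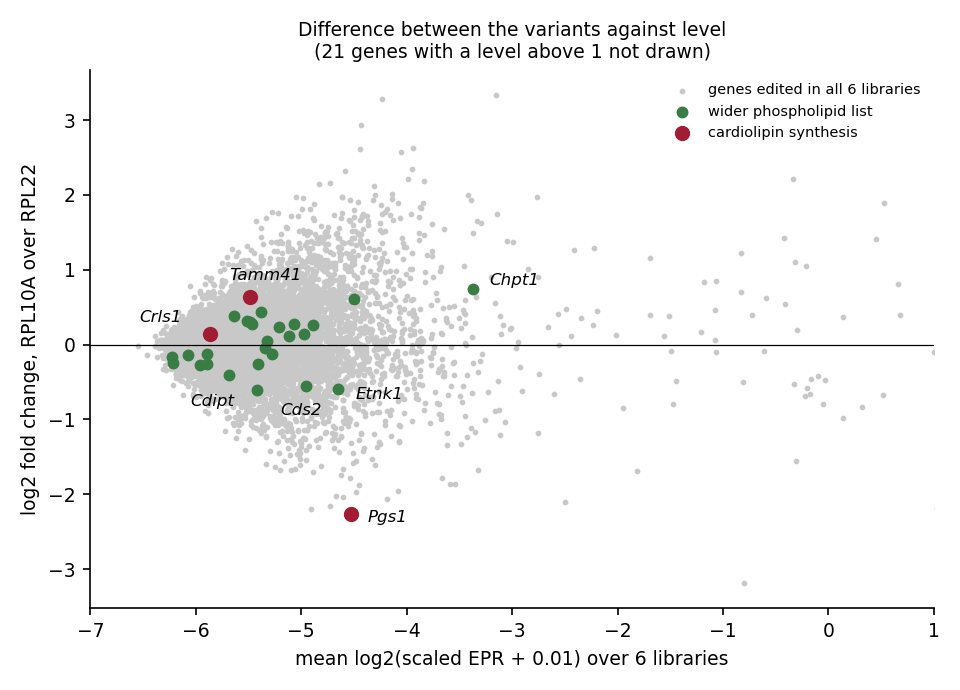
Log2 difference, RPL10A-STAMP minus RPL22-STAMP, against the mean log2(scaled EPR + 0.01) over the 6 libraries, for genes edited in all 6 (grey), the wider phospholipid list (green) and the cardiolipin synthesis genes (red); 21 genes with a level above 1 on this scale are not drawn. *Pgs1*, which was picked for its value, lies at the lower edge at -2.26, while *Tamm41* and *Crls1* lie within the cloud at 0.64 and 0.14.

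Genes whose pattern was most like that of *Pgs1* were sought among the genes edited in all 6 libraries, as those with the smallest Euclidean distance over the 6 log2 values of scaled EPR, each gene centred on its own mean. They were *Gm27000*, *Dynll1*, *Rnf187*, *Ppp2r1a* and *Tmem9b*, at distances of 0.581, 0.632, 0.638, 0.665 and 0.764, where the median over all genes was 2.89. Their log2 differences of -2.09, -2.19, -1.96, -2.16 and -2.07 follow from the search for the pattern of *Pgs1* and were not tested. None of them belongs to the phospholipid list.

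*Dynll1*, a light chain of the dynein motor, had an EPR of 0.00629, 0.00739 and 0.00547 with RPL10A-STAMP and of 0.0445, 0.0606 and 0.0571 with RPL22-STAMP. *Ppp2r1a*, the scaffold subunit of protein phosphatase PP2A, had 0.00718, 0.00916 and 0.0113 against 0.0531, 0.0670 and 0.0641. Both thus had levels of the same order as *Pgs1* in each variant, with less spread among the RPL10A-STAMP libraries. *Rnf187*, a RING finger gene, had 0.0190, 0.0275 and 0.0224 against 0.0793, 0.0996 and 0.101, and *Tmem9b*, a transmembrane protein gene, had 0.0169, 0.0175 and 0.0239 against 0.0717, 0.102 and 0.0984. *Gm27000*, an annotated lincRNA on chromosome X, had an EPR of 4.50, 5.63 and 6.00 against 13.3, 17.7 and 22.4, more edits than reads in every library.

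**Figure D5:**
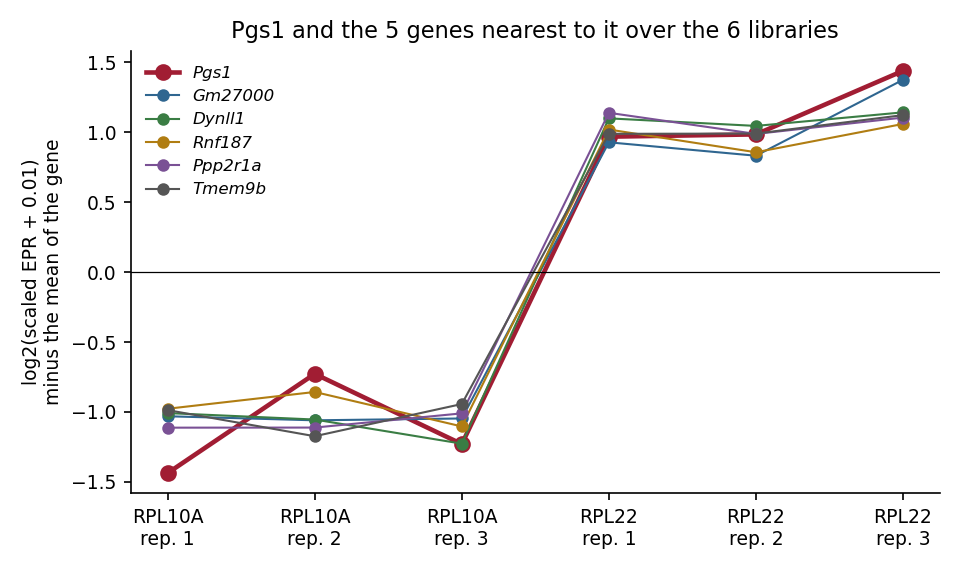
Log2(scaled EPR + 0.01) minus the mean of the gene in each of the 6 libraries (rep., replicate) for *Pgs1* (thick line) and the 5 genes nearest to it. Lines join the libraries of a gene for the eye only. All 6 genes lie below 0 in the 3 RPL10A-STAMP libraries and above 0 in the 3 RPL22-STAMP libraries, and *Pgs1* varies most among the RPL10A-STAMP libraries.

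The 5 nearest genes lie on chromosomes X, 5, 11, 17 and 7. *Rnf187* (chr11:58932288-58938916) shares the chromosome of *Pgs1* and none of its span. Their transcripts had a GC content of 57.8%, 49.3%, 61.1%, 54.8% and 48.0%, so that 4 of the 5 lay above the median of 48.9% over the tested genes, as *Pgs1* did at 57.4%. With the trend of each library with GC content removed, their log2 differences were -1.76, -2.17, -1.57, -1.91 and -2.10 in the same order. Beyond these values, the part of GC content in their difference was not tested.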

How the data were processed

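The authors trimmed single-end reads of poly(A) RNA libraries (TruSeq Stranded) with cutadapt, mapped them to mm10 using STAR, keeping reads with up to 10 locations, found C-to-U edits with SAILOR and counted reads with featureCounts. They deposited EPR, the ratio of edits to reads per gene, for 31053 genes in each of 6 libraries, without normalization between libraries. Whether reads that map to several places entered a gene's EPR was not given in the sources used here. The annotation used for counting was not given either. Depth per library cannot be computed from this ratio. Of the identifiers, 31011 were named through GENCODE M21 (GRCm38) and 42 were not found there. The study left genes that respond to Dox out of its later bulk analyses, and its list of them names *Pgs1* and *Ptpmt1*. Here all genes with a value were kept.

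The median EPR of the 8046 genes that all 6 libraries share as edited was made equal between libraries, at the geometric mean of the 6 medians. Log2(scaled EPR + 0.01) was then modelled in limma 3.58.1 under R 4.3.3 (lmFit, eBayes with a trend of the variance), with Benjamini-Hochberg adjustment over all 8046 genes and a threshold of 0.05. A difference on this scale understates the change of genes with low EPR. Filters that keep genes at 0 served as alternatives. The script was tested on simulated data. Groups came from the sample titles, which do not say whether the 3 libraries of a variant are separate cultures. The study calls its replicates biological in its methods and technical in 1 other place. If they are technical, p values measure that spread alone. Samples with the same replicate number did not deviate together. Their correlations were 0.0437, 0.0464 and -0.0055, and the number was not used as a block.

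The members and gene lists were chosen with earlier results of these data known. Genes named are the 5 members, listed phospholipid genes that passed the test, the 5 genes nearest to *Pgs1*, genes that overlap a member or neighbour *Pgs1*, and *Rpl10a* and *Rpl22*. *Wwtr1* is named for its alias alone. Other listed genes are named after their values were seen, with values for those that did not pass. Alternatives covered the pseudocount, scaling, filter, replicate block, trends with GC content (natural spline with 4 degrees of freedom) and length, the variance trend, the methods' own test and each library left out. The other steps ran in Python 3.11.15 with scipy 1.17.1, pandas 2.3.3, numpy 2.4.6 and, for plots, matplotlib 3.10.9.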

Additional observations from a re-analysis of the deposited data

How the results depend on the processing

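The ratio of the means of *Pgs1* was 8.42 after scaling and between 4.98 and 9.15 with each library left out. Its direction could not turn when a library was left out, since the groups do not overlap. *Pgs1* was picked for this value, so no support is drawn from it. The count of genes that passed the limma test, 1149, was 754 with genes edited in at least 3 libraries, 569 with no filter, 603 with the replicate number as a block, 663 with the GC trend removed, 227 with the GC trend removed and the replicate block, and 369 to 873 with each library left out, lowest without RPL10A-STAMP replicate 3. The methods' per-gene test on EPR as deposited called 0 genes after adjustment (1996 at an unadjusted p under 0.05). Without scaling, 1085 genes passed, 88.1% of them higher with RPL10A-STAMP against 59.6% with scaling, and the median log2 difference of all genes moved from -0.01 to 0.18. Of the phospholipid list, where 4 passed, 1 passed without scaling and 2 under the filter that asks for edits in at least 3 libraries. None passed in limma with no filter (5 at an unadjusted p under 0.05), the replicate block (5), the GC trend removed (3) or both together (2), 0 passed the methods' test (3), and 0 to 1 passed with each library left out. *Cds2* and *Cdipt* lost their call without any of the 6 libraries, *Etnk1* kept it only without RPL22-STAMP replicate 1 and *Chpt1* only without RPL22-STAMP replicate 2. Adjusted p over the 18 alternatives ranged from 0.0143 to 0.384 for *Cds2*, 0.0352 to 0.324 for *Cdipt*, 0.0275 to 0.327 for *Chpt1* and 0.0167 to 0.372 for *Etnk1*. *Tamm41* passed under none (0.0993 to 0.566), nor did *Crls1* (0.332 to 0.998). The direction of *Crls1* turned to -0.039 at the lowest with a library left out, against 0.36 at the highest. That of *Rpl22* turned to -0.0071 with a pseudocount of 0.001, to -0.011 with none, and ranged from -0.042 to 0.082 when libraries were left out. For all of these changes the cause was not tested. Depth is unknown, so it cannot be said which of the low EPR values rest on few reads.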
